A study of Homo sapiens with 6 samples.

Results

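The 10 genes VIM, TAGLN, TPM1, COL1A1, MMP1, MMP14, FSTL3, CGN, ST14 and SPINT1 are markers and effectors of the epithelial to mesenchymal transition (EMT) and of epithelial junctions. They were chosen by gene name from the 1099 genes of the deposited table, and all 10 had a row there. RNA was sequenced from cells labelled A549, a human lung adenocarcinoma line, in 6 poly(A) libraries. The F/B extract group (3 libraries) had received an extract that the series title names as one of Flos Sophorae Immaturus and broccoli seed, and the vehicle group (3 libraries) DMSO, each for 24 h. Both groups share the line and its label as wild type, the labels used here give no dose, and nothing says whether the replicates were separate cultures, so the p-values cover the spread among these 6 libraries alone, and that spread may be technical. The title puts EMT inhibition among the actions of the extract, and the 10 genes bear on that question.

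In EMT, epithelial cells loosen the junctions that hold them in a sheet and take on features of migrating cells. Vimentin filaments and actin-binding proteins such as transgelin and tropomyosin are used as signs of the mesenchymal state, and collagen and matrix metalloproteinases as signs of matrix remodelling. On the epithelial side, cingulin lies on the inner face of tight junctions, and the membrane protease matriptase works at the cell surface under the control of its inhibitor HAI-1.

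The table is the top 9.74% of 11289 genes when ranked by p-value in the same comparison, so every gene in it had already been picked for a difference between these 6 libraries. Estimated counts over the listed genes summed to between 3084337 and 3242553 in the extract libraries and to between 3436540 and 4640114 in the vehicle libraries, which is not the sequencing depth. The label A549 was checked against marker lists. MTAP, which lies in a region known to be lost from A549, stood at 48.9 to 60.5 TPM (transcript abundance per length, scaled to a fixed total per library), and the library names begin with AGS, the name of a gastric cancer line. Of 18 gastrointestinal markers 4 were listed, all called lower with extract, where 52.8% of all listed genes were. Without vehicle replicate 2, only VIL1 of these 4 was called. The 4 included VIL1, the brush border protein villin, at 142 to 214 TPM and CDH17, an intestinal cadherin, at 33.6 to 48.0 TPM, and TFF1, a secreted gastric peptide, at 33.3 to 81.5 TPM. Their part in the results below was not tested. Of 11 fibroblast markers 1 was listed, COL1A1, and of the 8 endothelial and 8 leukocyte markers 0 and 0. A gene outside the table was not analysed here, so its level is not known. In bulk RNA, fewer cells that express a gene and less RNA of it per cell cannot be told apart.

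With extract, TAGLN, MMP1, COL1A1, FSTL3, CGN and TPM1 fell and VIM rose, while MMP14, SPINT1 and ST14 had positive log2 fold changes that missed the threshold of 0.05. Among the mesenchymal markers VIM alone, with the lowest mean TPM of the 10, went against the fall of TAGLN and TPM1. The markers therefore had no common direction, and the junction gene CGN had the same sign as TAGLN. By edgeR's quasi-likelihood test with Benjamini-Hochberg adjustment over 11289 genes, 1 of the 10 was called higher, where 28.9% of the listed genes were, and 6 were called lower, where 52.8% were. The share called lower lies near that of the whole table, and with 10 genes picked by name neither count is read as particular to them. The median log2 fold change was -0.27 over the 10 genes and -0.22 over the listed genes, and the median absolute log2 fold change was 0.30 and 0.29. None of the 10 changed sign under 4 other library scales, which shifted the median log2 fold change of the listed genes upwards by 0.09 to 0.17. The split of calls did move with the scale: 4 of the 10 were called higher and 2 lower with TMM over the listed genes, and all listed genes then split into 385 higher and 87 lower, against 318 and 580 here. TMM, DESeq2 size factors and plain sums were taken over the listed genes alone, of which 387 had positive and 712 negative log2 fold changes. They thus centre on genes already picked for a difference, so calls that move on them are no independent check of the size factors used. In the authors' deposited table all 10 had an adjusted p of at most 0.0313, that of COL1A1. None of the 10 carried that table's mark of significance, which was given to 11 genes, whose smallest absolute log2 fold change was 1.02.

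**Figure D1:**
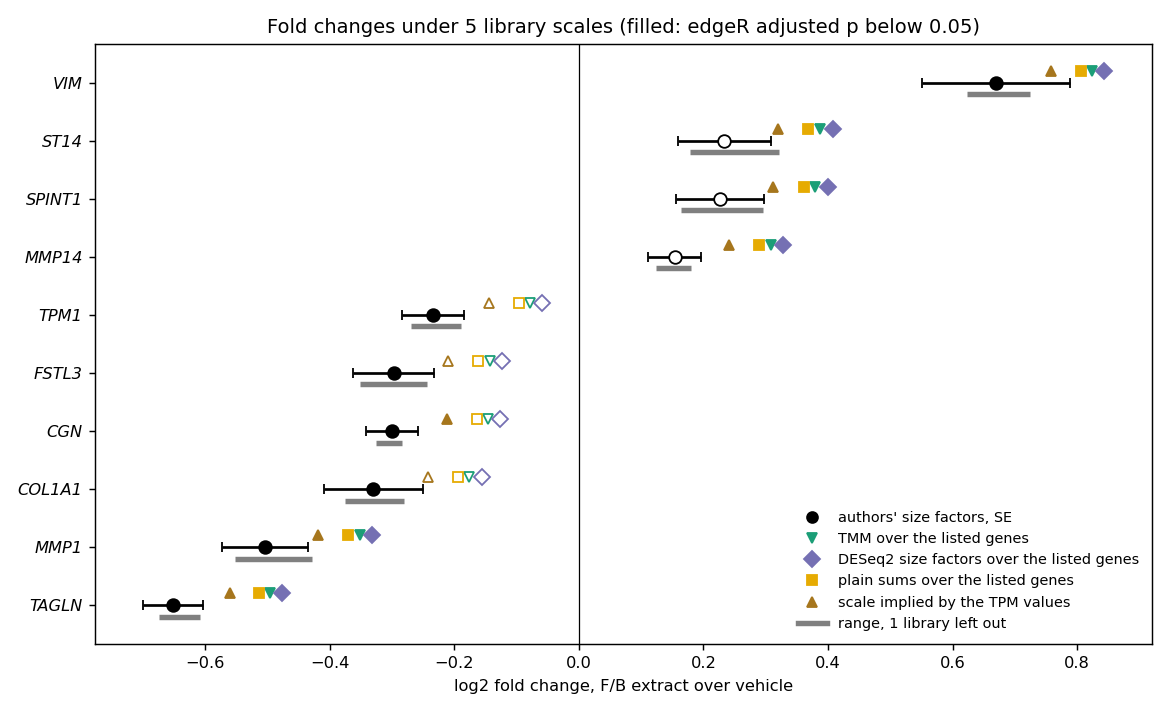
Log2 fold changes of the 10 genes, F/B extract over vehicle (x axis), with the SE of the edgeR fit on the size factors implied by the authors' fold changes (circles), 4 other library scales (coloured markers above) and the range over fits that leave out 1 library (grey bars below). Filled markers have an edgeR adjusted p below 0.05: TAGLN, MMP1 and VIM are filled on all 5 scales, TPM1, FSTL3 and COL1A1 on 1 of them.

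**Figure D2:**
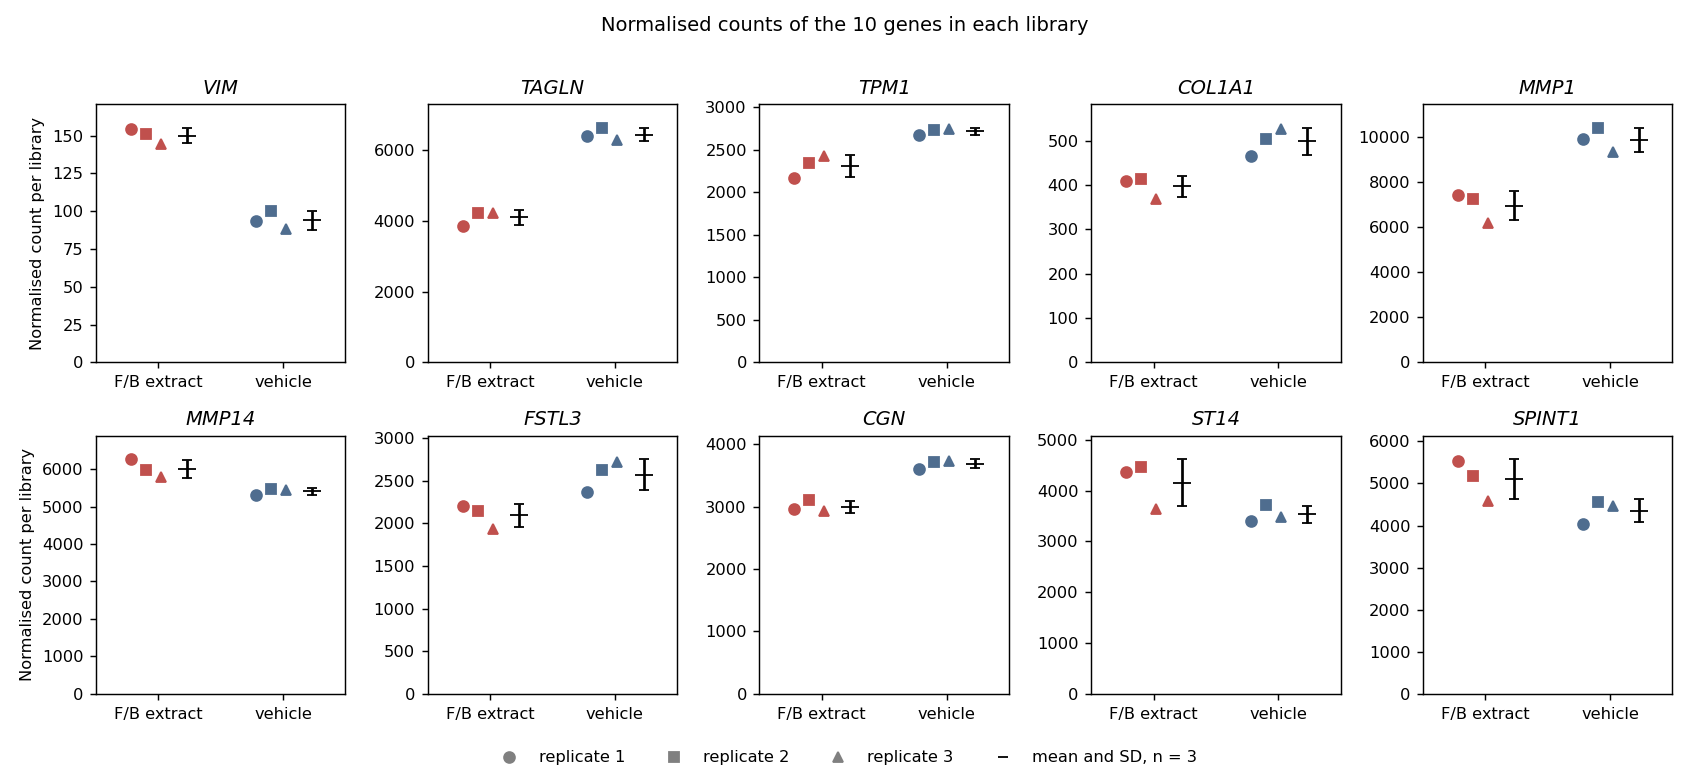
Normalised counts (rounded estimated counts divided by size factors, y axis) of the 10 genes in the F/B extract and vehicle libraries (x axis), with 1 point per library and the mean and SD of 3 libraries beside them. VIM lies at 144 to 154 in extract and 88.0 to 100.4 in vehicle libraries, and only ST14 has an extract library, replicate 3, inside the vehicle range.

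VIM encodes vimentin, the intermediate filament protein of mesenchymal cells (ENSG00000026025, GRCh38 chromosome 10, 17228259 to 17237593). Its normalised counts were 154, 151 and 144 in extract replicates 1 to 3, against 93.7, 100.4 and 88.0 in vehicle replicates 1 to 3. Every extract library lay above every vehicle library, and the spread within each group was small beside the gap. The means were 150.0 ± 5.12 with extract and 94.0 ± 6.22 with vehicle (SD, n = 3 each). On the log2 scale the difference was 0.67 with an SE of 0.12 (edgeR adjusted p = 0.0111), or 1.59-fold. That is the 14th highest log2 fold change of the 1099 listed genes. VIM was at the same time the gene with the lowest level of the 10, and its rank by mean TPM was 1013 of 1099. Its TPM values were 12.2, 9.44 and 10.0 with extract and 5.36, 7.50 and 4.32 with vehicle, again without overlap.

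The size of the VIM difference depended on which deposited value was read. The log2 ratio of mean TPM was 0.88, against 0.67 from the counts. On the library scale that the TPM values imply, the counts gave 0.76. That scale raised the median log2 fold change of the listed genes by 0.09, so part of the gap is not particular to VIM. Counts per unit of TPM and length, relative to the median gene of a library, were 0.606, 0.794 and 0.748 for VIM in extract libraries, against 0.826, 0.621 and 0.965 in vehicle libraries. The groups overlap in this quantity, but its shift of -0.17 on the log2 scale was larger in absolute size than that of 96.5% of listed genes or equal to it. Of the 6 VIM counts 1 was whole. Whether the counting used strand is not given in the sources used here, and the antisense genes VIM-AS1 and AL133415.1 share 641 and 619 of the 5158 exon bases of VIM in GENCODE v29, so reads of VIM and of these genes may not have been told apart. VIM was no longer called when vehicle replicate 2 (edgeR adjusted p = 0.0574), vehicle replicate 3 (0.0532) or extract replicate 2 (0.0542) was left out. Nor was it called by limma on the TPM values (adjusted p = 0.0715 on log2(TPM + 1) and 0.0887 on log2(TPM + 0.1)).

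TAGLN encodes transgelin, an actin-binding protein of smooth muscle and of mesenchymal cells (ENSG00000149591, chromosome 11, 117199321 to 117204782). Its normalised counts were 3847, 4210.4 and 4220.1 with extract, against 6399.9, 6615 and 6265 with vehicle. The groups stood far apart, and the highest extract library was well below the lowest vehicle library. TAGLN thus fell, with a fitted log2 difference of -0.65, an SE of 0.05 and an edgeR adjusted p of 0.000268, from means of 4093 ± 213 with extract and 6427 ± 177 with vehicle (SD, n = 3 each). In the authors' deposited table TAGLN had the 2nd smallest p-value. Its TPM values were more scattered with extract, at 231, 268 and 319, against 389, 449 and 403 with vehicle. None of its 6 counts was whole, and PCSK7 on the opposite strand shares 446 of its 3917 exon bases. On log2(TPM + 1), limma gave an adjusted p of 0.0540 for TAGLN, against 0.000268 from the counts.

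TPM1 encodes tropomyosin 1, which lies along actin filaments (ENSG00000140416, chromosome 15, 63042632 to 63071915). It had 2164, 2343 and 2421 normalised counts with extract, against 2669, 2734 and 2745 with vehicle, so the groups did not overlap. Its log2 fold change was -0.23 (SE 0.05, edgeR adjusted p = 0.0208). In TPM values the groups did overlap, at 214, 237 and 259 with extract and 258, 256 and 271 with vehicle, where extract replicate 3 lay inside the vehicle range. The call of TPM1 was lost on each of the 4 other library scales, where the log2 fold change was -0.06 to -0.14. It was also lost without vehicle replicate 2 (edgeR adjusted p = 0.110), vehicle replicate 3 (0.0861) or extract replicate 2 (0.0857). The antisense genes TPM1-AS and AC079328.2 share 2070 and 691 of its 12876 exon bases. Between these actin-binding genes the decrease was unequal: the ratio of TPM1 to TAGLN in TPM was 0.930, 0.882 and 0.812 with extract, against 0.665, 0.570 and 0.671 with vehicle, with no overlap. Over the same libraries the ratio of VIM to TAGLN was 0.0529, 0.0352 and 0.0313 with extract, against 0.0138, 0.0167 and 0.0107 with vehicle, also without overlap.

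COL1A1 encodes the alpha 1 chain of type I collagen, the main fibrillar collagen of the matrix (ENSG00000108821, chromosome 17, 50183289 to 50201632). Normalised counts were 408, 413 and 369 with extract, against 465, 503.9 and 525 with vehicle, and all extract libraries were below all vehicle libraries. For COL1A1 the log2 fold change was -0.33, with an SE of 0.08 (edgeR adjusted p = 0.0333). In TPM the groups overlapped, with 10.0, 12.1 and 14.9 for extract and 12.8, 13.97 and 15.8 for vehicle. Extract replicate 3 had the lowest count and the highest TPM value of its group, although all 6 counts were whole. The call was lost on the 4 other scales, and without vehicle replicate 2, vehicle replicate 3, extract replicate 2 or extract replicate 3 (edgeR adjusted p from 0.0930 to 0.156).

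MMP1, interstitial collagenase, cuts fibrillar collagens (ENSG00000196611, chromosome 11, 102789920 to 102798160). It fell to 7417, 7250.1 and 6206 normalised counts with extract, against 9906, 10384 and 9316 with vehicle. The groups were well separated, with extract replicate 3 the lowest library. The fitted log2 difference was -0.50 with an SE of 0.07 (edgeR adjusted p = 0.00416), or 1.42-fold, from means of 6958 ± 656 with extract and 9869 ± 535 with vehicle (SD, n = 3 each). MMP1 alone of the 10 genes was called in all 18 other settings. Its TPM values were separate as well, at 348, 351 and 315 with extract and 459, 472 and 431 with vehicle. The opposite-strand pseudogene WTAPP1 shares 150 of its 1970 exon bases.

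MMP14 encodes a membrane-bound metalloproteinase that cuts collagen at the cell surface and activates other secreted proteases (ENSG00000157227, chromosome 14, 22836557 to 22849027). Its normalised counts were 6258, 5980.4 and 5789 with extract, against 5305, 5455 and 5444 with vehicle. Although the groups did not overlap, the log2 fold change was 0.15 (SE 0.04) and missed the threshold (edgeR adjusted p = 0.0573). On the 4 other library scales MMP14 was called, with log2 fold changes of 0.24 to 0.33, and it was also called by DESeq2 with the same size factors (adjusted p = 0.0133). Without extract replicate 3 it was called as well (edgeR adjusted p = 0.0369). TPM values were 236, 230.5 and 224 with extract and 213, 181 and 186 with vehicle.

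A ratio of 2 genes within a library does not depend on the library scale. The ratio of MMP1 to MMP14 in TPM was 1.47, 1.52 and 1.41 with extract, against 2.16, 2.60 and 2.32 with vehicle. Means were 1.47 ± 0.0596 with extract and 2.36 ± 0.226 with vehicle (SD, n = 3 each), a change of -0.68 on the log2 scale, and -0.66 when taken from the estimated counts. The secreted collagenase was thus lower relative to the membrane-bound one in every extract library. In all, 6 such ratios were computed for pairs chosen after the fold changes had been seen. By a two-sided exact permutation test 4 of them, MMP1 to MMP14 included, had p = 0.1 (0.15 adjusted over the 6), the smallest p that 3 against 3 libraries allow, and the other two had p = 0.9, so none passed.

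FSTL3, follistatin-like 3, is a secreted protein that binds and blocks activin (ENSG00000070404, chromosome 19, 676365 to 683399). With extract it had 2198, 2143 and 1933 normalised counts, against 2367, 2625 and 2713 with vehicle. Vehicle replicate 1 lay closest to the extract libraries, but above them all. For FSTL3 the log2 fold change was -0.30 (SE 0.07, edgeR adjusted p = 0.0234), and TPM values were 82.6, 83.4 and 79.4 with extract and 87.5, 96.4 and 100.8 with vehicle. The call was lost on the 4 other scales, and without vehicle replicate 2 (edgeR adjusted p = 0.121), vehicle replicate 3 (0.101), extract replicate 2 (0.0784) or extract replicate 3 (0.0547). The ratio of FSTL3 to COL1A1 in TPM was 8.26, 6.91 and 5.34 with extract and 6.82, 6.90 and 6.39 with vehicle, so the extract libraries spread on both sides of the vehicle range. In estimated counts the ratio was 5.39, 5.19 and 5.24 with extract and 5.09, 5.21 and 5.17 with vehicle, where the groups overlapped too.

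CGN encodes cingulin, a protein on the inner face of tight junctions that links them to actomyosin (ENSG00000143375, chromosome 1, 151510510 to 151538692). It had 2959, 3100.2 and 2924 normalised counts with extract, against 3607, 3717 and 3736 with vehicle. The libraries of each group lay close together, and the groups were separate. Its log2 fold change was -0.30 (SE 0.04, edgeR adjusted p = 0.00431), or 1.23-fold. All 6 counts were whole, and TPM values were 49.8, 54.8 and 57.1 with extract and 61.4, 62.4 and 65.2 with vehicle. The call was kept without any 1 library (edgeR adjusted p from 0.00545 to 0.0397). It was also kept on the scale that the TPM values imply (0.0281). It was lost with TMM, with DESeq2 size factors and with plain sums over the listed genes, where the log2 fold change was -0.13 to -0.16. By limma on the TPM values it was lost as well (adjusted p = 0.224 on log2(TPM + 1) and 0.241 on log2(TPM + 0.1)).

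ST14 encodes matriptase, a serine protease in the membrane of epithelial cells (ENSG00000149418, chromosome 11, 130159562 to 130210376), and SPINT1 its Kunitz-type inhibitor HAI-1 (ENSG00000166145, chromosome 15, 40844018 to 40858207). ST14 had 4366, 4475 and 3633 normalised counts with extract, against 3399.5, 3718 and 3485 with vehicle. SPINT1 had 5527, 5177 and 4586 with extract, against 4042, 4559.8 and 4463 with vehicle. In both genes extract replicate 3 was the lowest extract library, below vehicle replicate 2 for ST14 and just above it for SPINT1. The log2 fold change was 0.23 for ST14 (SE 0.07, edgeR adjusted p = 0.116) and 0.23 for SPINT1 (SE 0.07, edgeR adjusted p = 0.105), so neither passed.

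Both ST14 and SPINT1 passed when extract replicate 3 was left out (edgeR adjusted p = 0.00991 and 0.0238) and on each of the 4 other scales. In TPM all extract libraries were above all vehicle libraries for ST14, at 115, 121 and 103 with extract and 88.8, 95.0 and 90.6 with vehicle. The same held for SPINT1, at 197, 189 and 169.8 with extract and 141, 153 and 155 with vehicle. The ratio of inhibitor to protease, SPINT1 to ST14, was 1.71, 1.55 and 1.64 in TPM with extract, against 1.59, 1.61 and 1.71 with vehicle. Means of this ratio were 1.63 ± 0.0769 with extract and 1.64 ± 0.0622 with vehicle (SD, n = 3 each), a difference smaller than the spread within either group. The ratio of CGN to SPINT1 was 0.253, 0.290 and 0.336 with extract and 0.434, 0.407 and 0.421 with vehicle. Between the groups, the 2 genes on the epithelial surface had positive log2 fold changes that missed the threshold with the size factors used. The tight junction gene CGN had a negative one that passed it.

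**Figure D3:**
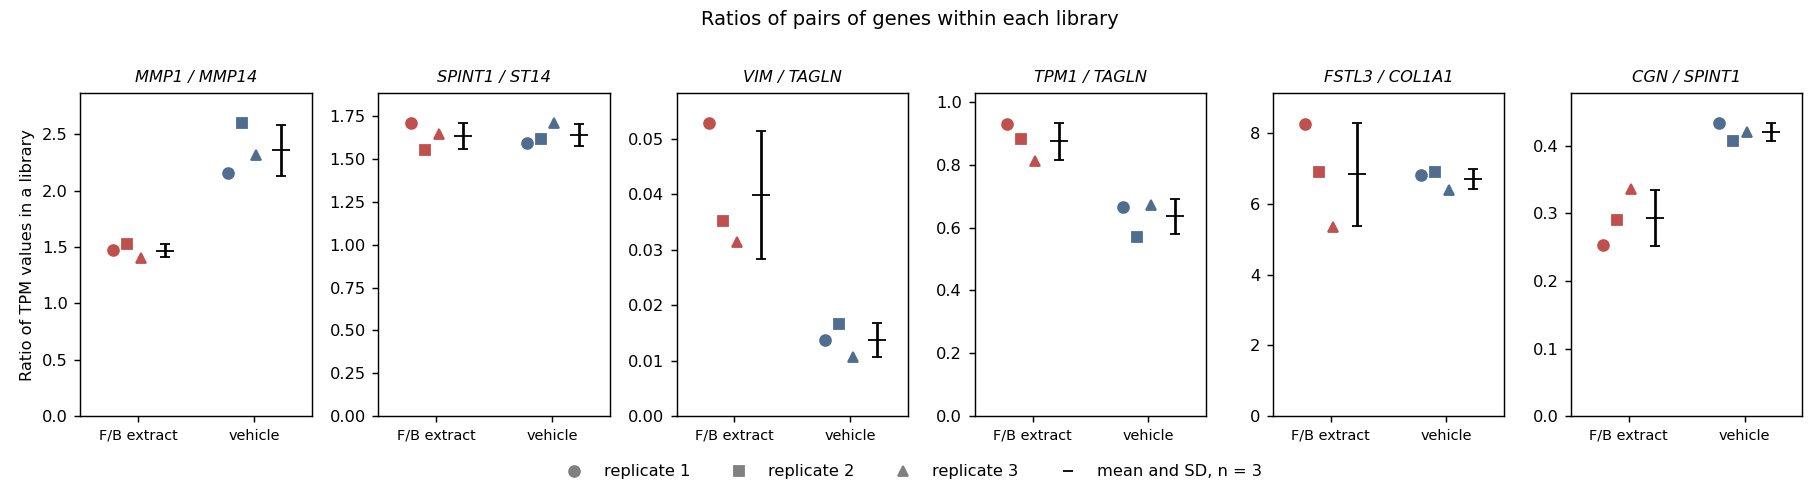
Ratios of TPM values (y axis, from 0) of 6 pairs of genes within each F/B extract and vehicle library (x axis), with 1 point per library and the mean and SD of 3 libraries. MMP1 to MMP14 lies at 1.41 to 1.52 with extract and 2.16 to 2.60 with vehicle, while SPINT1 to ST14 overlaps at 1.55 to 1.71 and 1.59 to 1.71.

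In normalised counts the groups did not overlap for 9 of the 10 genes, 3 higher with extract (34.6% of listed genes) and 6 lower (63.9%). In TPM they did not overlap for 8, 4 higher (32.2% of listed genes) and 4 lower (44.2%). The genes differed between the scales in both directions: ST14 overlapped in counts alone, and TPM1 and COL1A1 in TPM alone. Counts were whole in all 6 libraries for 7 of the 10 genes, the exceptions being VIM, TAGLN and TPM1.

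Levels per length spanned a wide range and kept much the same order in both groups. With extract the order by mean TPM was MMP1 (338 ± 20.4), TAGLN (273 ± 44.6), TPM1 (237 ± 22.5), MMP14 (230.2 ± 6.21), SPINT1 (185 ± 13.8), ST14 (113 ± 9.20), FSTL3 (81.8 ± 2.12), CGN (53.9 ± 3.71), COL1A1 (12.3 ± 2.43) and VIM (10.6 ± 1.46; SD, n = 3). With vehicle it was MMP1 (454 ± 20.7), TAGLN (414 ± 31.4), TPM1 (262 ± 7.80), MMP14 (193 ± 17.02), SPINT1 (149.9 ± 7.43), FSTL3 (94.9 ± 6.78), ST14 (91.5 ± 3.22), CGN (63.0 ± 1.99), COL1A1 (14.2 ± 1.48) and VIM (5.73 ± 1.62; SD, n = 3). With extract, the ranges of MMP1, TAGLN, TPM1 and MMP14 each overlapped that of the next, as did those of COL1A1 and VIM. With vehicle, overlaps of neighbours were limited to MMP1 with TAGLN and FSTL3 with ST14. ST14 stood above FSTL3 in each extract library, while the vehicle ranges of these genes overlapped.

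**Figure D4:**
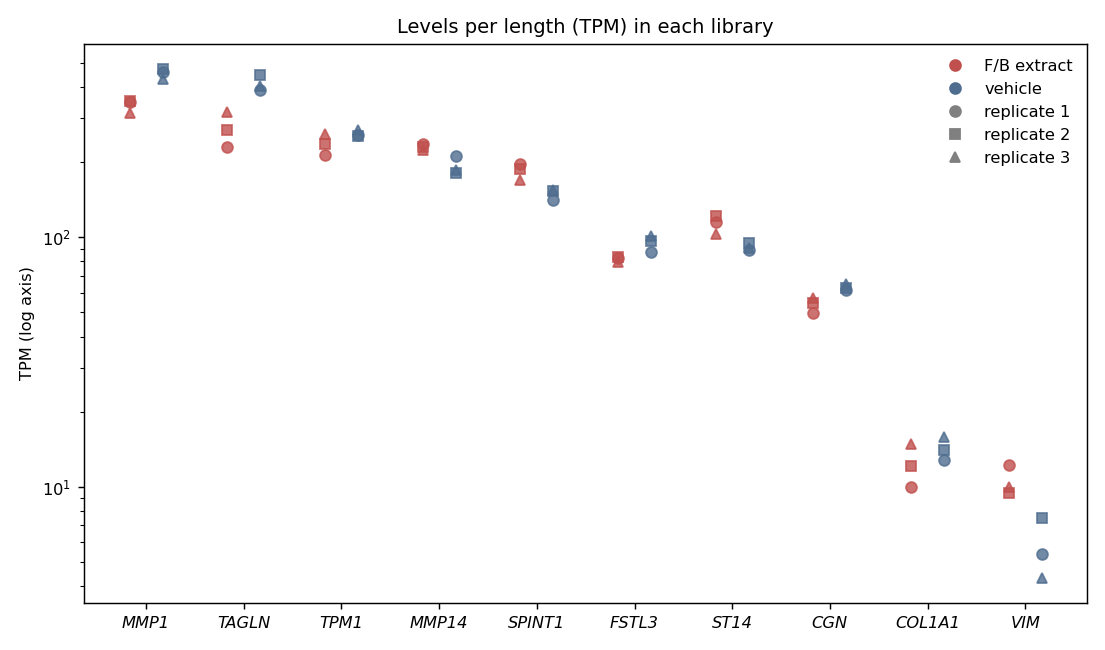
TPM values (log y axis) of the 10 genes (x axis, ordered by the vehicle mean) in each F/B extract and vehicle library, with 1 point per library. COL1A1 and VIM lie near 4.32 to 15.8 TPM, and the other 8 genes at 49.8 TPM or more in each library.

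Promoter windows, the 250 bases before the transcription start given by RefSeq (GRCh38.p14), were found for 6 of the 10 genes. None was found for TAGLN, MMP1, COL1A1 and ST14. On both strands the windows were searched for the AP-1 motif TGANTCA, the E-box CAGGTG that SNAI and ZEB factors bind, the TEAD motif CATTCC and the CArG box of serum response factor. Among all 35116 windows of this kind from RefSeq, 6.57% held the AP-1 motif, 17.5% the E-box, 11.9% the TEAD motif and 1.16% the CArG box. The windows shown are those of the mesenchymal gene that rose, of 2 genes that fell, and of SPINT1 at the second of its 2 listed starts. Capitals mark a match.
VIM, chr10:17227991-17228240, + strand: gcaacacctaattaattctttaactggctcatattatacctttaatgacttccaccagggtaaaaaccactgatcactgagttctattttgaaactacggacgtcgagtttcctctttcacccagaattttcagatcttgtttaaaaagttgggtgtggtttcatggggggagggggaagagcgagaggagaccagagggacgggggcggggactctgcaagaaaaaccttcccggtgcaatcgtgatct
FSTL3, chr19:676142-676391, + strand: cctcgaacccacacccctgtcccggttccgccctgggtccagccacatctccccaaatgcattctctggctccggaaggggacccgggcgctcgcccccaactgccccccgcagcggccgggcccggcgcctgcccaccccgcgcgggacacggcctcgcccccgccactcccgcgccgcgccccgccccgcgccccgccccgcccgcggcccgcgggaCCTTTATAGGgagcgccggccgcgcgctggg
CGN, chr1:151511137-151511386, + strand: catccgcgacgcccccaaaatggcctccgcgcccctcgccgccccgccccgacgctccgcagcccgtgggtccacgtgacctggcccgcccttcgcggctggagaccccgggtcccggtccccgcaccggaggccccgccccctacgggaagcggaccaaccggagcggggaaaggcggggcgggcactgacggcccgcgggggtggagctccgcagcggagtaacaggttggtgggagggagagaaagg
SPINT1, chr15:40844227-40844476, + strand: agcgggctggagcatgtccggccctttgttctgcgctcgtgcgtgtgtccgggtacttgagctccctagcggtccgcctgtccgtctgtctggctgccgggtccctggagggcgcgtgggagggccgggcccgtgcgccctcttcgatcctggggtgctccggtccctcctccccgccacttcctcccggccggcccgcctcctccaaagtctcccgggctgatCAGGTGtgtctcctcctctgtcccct
The CArG box in the FSTL3 window begins 31 bases before the start, and the E-box in the SPINT1 window begins 26 bases before that start. No motif overlapped another. The windows of VIM, CGN, MMP14, TPM1 and the other SPINT1 start held none of the 4 motifs. A match is a description of these letters and was not tied to binding in these cells.

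Other genes of the same processes were read from lists, whose counts are to be read against the 28.9% of all listed genes called higher and the 52.8% called lower. Of 34 mesenchymal and cytoskeletal genes 9 were listed, 1 called higher (VIM) and 8 lower, with a median log2 fold change of -0.31 against -0.22 over all listed genes. Outside the 10 genes, MYL9, a myosin light chain, was at -0.53 (SE 0.05, edgeR adjusted p = 0.00125). S100A4, a calcium-binding protein linked to cell motility, was at -0.90 (SE 0.13, edgeR adjusted p = 0.00483). LGALS1, the lectin galectin-1, was at -0.31 (SE 0.05, edgeR adjusted p = 0.0101). The 8 called lower became 3 with TMM, 3 when vehicle replicate 2 was left out, and 5 in the absence of either vehicle replicate 3 or extract replicate 2, with all 8 negative throughout. TAGLN, MYL9 and S100A4 were the 3 called with TMM and also the 3 called without vehicle replicate 2.

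Among 38 matrix and matrix protease genes 5 were listed, 2 called higher and 2 lower. Among the higher ones was ADAM17, a membrane protease that sheds growth factors and cytokines, at 0.18 (SE 0.04, edgeR adjusted p = 0.0365). Both higher calls were lost without vehicle replicate 1, vehicle replicate 2, vehicle replicate 3, extract replicate 1 or extract replicate 2. The lower ones were MMP1 and COL1A1.

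Of 34 activin and TGF-beta pathway genes 8 were listed, 1 called higher and 5 lower. ID3, ID1 and ID2, inhibitors of basic helix-loop-helix transcription factors, were at -1.45, -0.67 and -0.44 (edgeR adjusted p = 0.000268, 0.00618 and 0.0120). The 5 lower, FSTL3 among them, became 2 with TMM, ID3 and ID1, and the same 2 after leaving out extract replicate 2, vehicle replicate 2 or vehicle replicate 3.

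CGN was the single listed gene of 44 junction and epithelial genes, so 43 were not analysed here. Of 17 membrane serine protease genes and their inhibitors 4 were listed. Of these 1 was called higher and 1 lower, the lower one being TMPRSS4, a membrane serine protease, at -0.28 (SE 0.05, edgeR adjusted p = 0.0131). The call of TMPRSS4 was lost on the 4 other scales and without vehicle replicate 2 or 3. Of 17 genes listed to check the lung label, the single one in the table was MTAP, a metabolic enzyme and no lung marker, at -0.19 (edgeR adjusted p = 0.0290). The other 16, surfactant genes among them, were not analysed here.

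For VIM, TAGLN and CGN the listed genes with the most similar profile over the 6 libraries were found by the root mean square difference of centred log2 normalised counts, among 1037 genes. Those nearest VIM were CROCC (0.0803), PRSS2 (0.0858) and KLHL24 (0.0875), where the median gene was at 0.449. Nearest to TAGLN were IL32 (0.0462), KRT80 (0.0634) and MYH4 (0.0727), with a median of 0.237. PDLIM7 (0.0211), PPA1 (0.0213) and C1orf116 (0.0216) were nearest CGN, with a median of 0.1001. All points of such a profile share the 2 groups and the size factors, so the values are a description.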

How the data were processed

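The authors deposited 1 table of 1099 genes for the 6 libraries. The deposited estimated counts, of which 31.8% to 35.9% in each library were not whole, were rounded here. It also holds TPM values deposited by the authors, and their fold change as a ratio, log2 fold change, p-value and adjusted p-value, per the file headers; the comparison was made with DESeq2, per the name of the table. The submitters' processing notes name the build GRCh38.p13. What aligned and counted the reads, with which annotation and strand setting, is not given in the sources used here. Depth per library is unknown, since the table holds part of each library, and no interval was drawn from it.

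That 11289 genes were tested follows from the ratio of deposited adjusted to raw p-values at each rank under Benjamini-Hochberg (largest relative error 0.00445). Their log2 fold changes run vehicle over extract: the extract over vehicle ratio of TPM had the opposite sign in 1091 of 1099 genes. All directions here are extract over vehicle. Size factors were those implied by the deposited fold changes (0.920, 0.959 and 0.935 for extract replicates 1 to 3, and 0.940, 1.23 and 1.05 for vehicle replicates 1 to 3). DESeq2 fold changes with these factors differed from the deposited ones by at most 0.00132 on the log2 scale.

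The fit was edgeR's quasi-likelihood test (edgeR 4.0.16, R 4.3.3) over all listed genes, without a covariate, adjusted over 11289 genes by taking unlisted genes to have larger p-values. SE was taken as the size of the log2 fold change over the root of the F statistic. The spread came from genes selected on the same libraries, so p-values may be too small. The code was tested on simulated data. Alternatives were 4 library scales, DESeq2 1.42.0, limma 3.58.1 (voom, and log2 TPM with pseudocounts of 1 and 0.1), 2 filters, the replicate number as a block, adjustment over the listed genes alone, and leaving out each library. Ratios of estimated counts in place of TPM ratios were added after seeing the data. Gene coordinates and overlaps are from GENCODE v29 (GRCh38). The 10 genes, lists and rules were chosen with earlier results of these data known. Named from the lists were up to 3 called genes by p-value, or all listed ones where a list had 3 or fewer, and, as most like VIM, TAGLN and CGN, the 3 genes, averaging 5 TPM or more in 1 of the groups, with the smallest profile difference (prior count 0.5). Some genes that this rule names are not reported here.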

Additional observations from a re-analysis of the deposited data

How the results depend on the processing

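No gene of the 10 changed sign in any of the 18 other settings. MMP1 was called in 18 of them, TAGLN in 16, VIM and CGN in 13 each, TPM1 in 8, COL1A1, FSTL3, MMP14 and SPINT1 in 7 each and ST14 in 6. Adjustment over the listed genes alone could lose no call, and the 2 filters removed 0 genes. Of the 10 genes, 1 was called higher and 6 lower with the size factors used. The number called higher was 4 with TMM, DESeq2 size factors or plain sums over the listed genes, 4 on the TPM-implied scale, 4 with adjustment over the listed genes alone, 3 with DESeq2 and 0 with limma on log2(TPM + 1) or log2(TPM + 0.1). The number called lower was 2, 2, 2 and 3 on these 4 scales in turn and 1 with limma on log2(TPM + 1) or log2(TPM + 0.1). Leaving out 1 library gave 0 to 4 higher and 3 to 6 lower. Removing extract replicate 2, or else vehicle replicate 2 or 3, left 0 higher and 3 lower, and removing extract replicate 3 gave 4 and 4.

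Of all listed genes 318 were called higher and 580 lower with the size factors used. The number called lower depended strongly on the scale, and the number called higher less so. The number lower was 87 with TMM, 86 with DESeq2 size factors and 126 with plain sums over the listed genes, and 197 on the TPM-implied scale, where 385, 387, 386 and 371 were higher. With limma on log2(TPM + 1) 122 were higher and 60 lower, and with log2(TPM + 0.1) 117 and 52. Leaving out 1 library gave 50 to 287 higher and 128 to 570 lower. With the replicate number as a block 90 were higher and 232 lower, and of the 10 genes 1 and 3. The scales taken over the listed genes centre on genes picked for a difference, and a fit with a block or a library fewer has fewer degrees of freedom. The causes of these moves were not tested. Same-numbered libraries did not deviate together (correlations of -0.23, -0.01 and -0.03 over genes for replicates 1 to 3). The labels do not say whether the numbers pair the samples, and correlations over these genes cannot settle it.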
